A study of Mus musculus with 24 samples.

Results

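Oxidative phosphorylation outside complex I was followed gene by gene in polysome profiling RNAseq of the mouse striatum. The group held the nuclear genes for succinate dehydrogenase (complex II), the cytochrome bc1 complex (complex III), cytochrome c, cytochrome c oxidase (complex IV) and ATP synthase (complex V). Members were chosen by symbol alone: Sdha to Sdhd, Cyc1, Cycs, every symbol opening with Uqcr, Cox4 to Cox8 or Atp5, and Usmg5 and Atpif1, which gave 51 of the 24079 genes counted. They were divided by known role into 10 catalytic, redox or core genes, 29 small subunits, 2 membrane anchors, 7 tissue isoforms and 3 others. The 10, called catalytic below, include the complex III core proteins Uqcrc1 and Uqcrc2. The mitochondrially encoded subunits had 0 rows named for them and were not analysed here.

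The study asked which mRNAs depend on phosphorylation of ribosomal protein S6 (rpS6), a component of the small ribosomal subunit. Constitutive knockin mice (rpS6P-/-; rpS6 knockin in the labels), in which the phosphorylated serines of rpS6 were replaced by alanine in every cell, were set against wild-type littermates on the same mixed C57Bl/6, Sv129 and ICR background, males and females, whose age is not given in the sources used here. The dorsal striatum (DS) and, below it, the nucleus accumbens (Acb) were each profiled as whole lysates, which give the steady-state mRNA level, and as heavy polysomal fractions, the part of the same lysate that carries several ribosomes per mRNA. There were 8 groups of 3 libraries, 24 in all, each from the pooled tissue of several mice, so p-values measure the spread between these pools. The mutation changes single residues, so gene counts cannot check the genotype.

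Complex II oxidises succinate, complex III passes electrons from ubiquinol to cytochrome c, complex IV passes them to oxygen, and ATP synthase uses the proton gradient built on the way to make ATP. Complexes III to V join a few large catalytic or redox subunits to many small ones that stabilise or regulate them, while complex II has a catalytic pair on a membrane anchor. Neurons draw most of their ATP from this chain.

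The small subunits are encoded by some of the shortest coding sequences in the genome. Their coding sequences had a median of 312 nt (159 to 771), against 1170 nt (318 to 1995) for the catalytic genes and 1215 nt over all genes with a transcript. The coding sequences of 6 of the shortest members are printed because the differences between the fractions below followed coding length. They were read from GENCODE M21 transcripts on GRCm38, with the start and stop codons in capitals. Atp5e (epsilon, in the central stalk of ATP synthase) has 52 codons and lies at chr2:174461075-174464101. Uqcr11, a small complex III subunit, has 56 codons at chr10:80402997-80406821. Usmg5, a small membrane subunit of ATP synthase that holds its dimers together, has 58 codons at chr19:47083471-47090647. Cox7c has 63 codons at chr13:86044798-86046795 and Cox8a 69 codons at chr19:7215158-7217616, both coding for membrane subunits of complex IV. Atp5k (subunit e of ATP synthase) has 71 codons at chr5:108433246-108434399.
Atp5e: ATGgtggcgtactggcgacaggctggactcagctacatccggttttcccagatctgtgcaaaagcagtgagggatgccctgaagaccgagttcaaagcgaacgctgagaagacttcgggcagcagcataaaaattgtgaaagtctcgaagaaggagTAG
Uqcr11: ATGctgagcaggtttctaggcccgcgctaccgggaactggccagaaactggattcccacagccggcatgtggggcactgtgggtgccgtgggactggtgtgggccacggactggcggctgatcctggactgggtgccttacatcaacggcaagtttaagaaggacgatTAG
Usmg5: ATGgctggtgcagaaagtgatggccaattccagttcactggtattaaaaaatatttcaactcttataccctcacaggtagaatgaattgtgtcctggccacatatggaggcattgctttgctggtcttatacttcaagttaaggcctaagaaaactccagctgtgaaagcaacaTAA
Cox7c: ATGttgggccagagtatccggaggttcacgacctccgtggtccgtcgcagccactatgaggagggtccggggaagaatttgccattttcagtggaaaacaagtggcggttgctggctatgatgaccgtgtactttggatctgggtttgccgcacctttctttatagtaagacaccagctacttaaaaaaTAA
Cox8a: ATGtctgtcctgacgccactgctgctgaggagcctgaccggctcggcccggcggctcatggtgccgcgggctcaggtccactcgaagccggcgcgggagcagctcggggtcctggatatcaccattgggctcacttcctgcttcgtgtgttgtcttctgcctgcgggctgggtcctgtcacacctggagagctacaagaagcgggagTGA
Atp5k: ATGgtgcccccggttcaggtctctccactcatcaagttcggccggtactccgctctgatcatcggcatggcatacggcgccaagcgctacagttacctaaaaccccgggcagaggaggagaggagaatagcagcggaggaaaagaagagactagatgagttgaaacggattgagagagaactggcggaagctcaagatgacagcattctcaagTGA

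Reads assigned to genes ranged from 9280589 to 34703044 per library. The members took 0.767 to 1.01% of them in whole lysates and 1.02 to 1.85% in heavy polysomal fractions. The RNA Bc1 alone took 15.2 to 26.1% of lysate reads and 0.897 to 3.85% of heavy reads. Its reads lower the lysate shares of all other genes, and its part in the members' shares was not tested. Medium spiny neuron markers, 9 of 10 found, summed to 4010 to 4833 CPM (counts scaled to library size with TMM factors) in lysates and to 5392 to 7063 CPM in heavy fractions. These neurons are the output cells of the striatum. Cortical excitatory neuron markers summed to 66.0 to 203 CPM in the Acb and to 694 to 931 CPM in the DS, and in wild-type lysates astrocyte markers summed to 1834 to 2345 CPM in the Acb and 1273 to 1330 in the DS, microglia markers to 173 to 196 and 91.4 to 113, and oligodendrocyte markers to 3617 to 4197 and 2707 to 3411. In rpS6P-/- heavy fractions astrocyte markers summed to 1809 to 2110 CPM in the Acb and 738 to 1438 in the DS. In wild-type heavy fractions they summed to 1295 to 1936 and 809 to 1116 CPM, ranges that overlap those of rpS6P-/- mice. The part of these cells in differences between the regions or genotypes was not tested. Among heavy libraries, rpS6P-/- Acb replicate 3 stood apart: the median of its small subunits minus that of its catalytic genes was -1.52 log2 units, against -0.312 and -0.418 in the other two rpS6P-/- Acb libraries. Replicate 2 of the wild-type heavy libraries lay lowest of its group in both regions, with -0.0824 in the Acb and -0.380 in the DS, while the other wild-type heavy libraries had 0.540 to 0.800.

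In whole lysates the highest levels per unit of transcript length were those of small subunits. In wild-type Acb lysates Usmg5 reached 754 ± 74.8 RPKM (CPM per kilobase of transcript, mean ± SD, n = 3), Cox6c 703 ± 49.2, Uqcrh 694 ± 116 and Cox4i1 693 ± 43.8, 4 levels that do not differ beyond their spread. Atp5b, the catalytic beta subunit of ATP synthase, was the highest catalytic gene at 480.3 ± 41.9 RPKM, followed by its alpha partner Atp5a1 at 331 ± 31.4. The flavoprotein and iron-sulphur subunits of complex II, Sdha and Sdhb, stood at 124 ± 6.45 and 108 ± 5.96 RPKM, and Cyc1, cytochrome c1, at 56.4 ± 10.3. Within complex IV the subunit genes ran from Cox6c down to Cox5b at 121 ± 20.2 RPKM, although these subunits sit in the complex in equal number. Transcripts made from other starts or ends would change these levels, since 1 transcript per gene gave the length.

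The tissue isoforms of complex IV were barely present. Cox8c had 0 reads in all libraries, and Cox8b and Cox7b2 stayed at or below 1.58 CPM in every library. Cox6a2, the heart and muscle partner of Cox6a1, was the only isoform with more than 50 reads per library on average. It measured 3.83, 3.53 and 2.57 CPM in the wild-type Acb lysates and 3.0, 4.38 and 3.36 CPM in the wild-type DS lysates, against 103, 124 and 105 CPM and 97.0, 158 and 83.5 CPM for Cox6a1. Muscle markers summed to 13.4 to 35.5 CPM over the libraries. Ckm was at 0 in 6 of the 8 groups, while the other listed muscle markers had reads in every group. The highest values of Cox4i2, Cox6b2 and Cox7a1 in any library were 8.63, 6.03 and 3.56 CPM, so their fold changes rest on few reads. Atp5s and Atp5sl, which carry ATP synthase names without a settled subunit role here, stood at 7.93 ± 1.94 and 21.3 ± 3.66 RPKM.

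**Figure D1:**
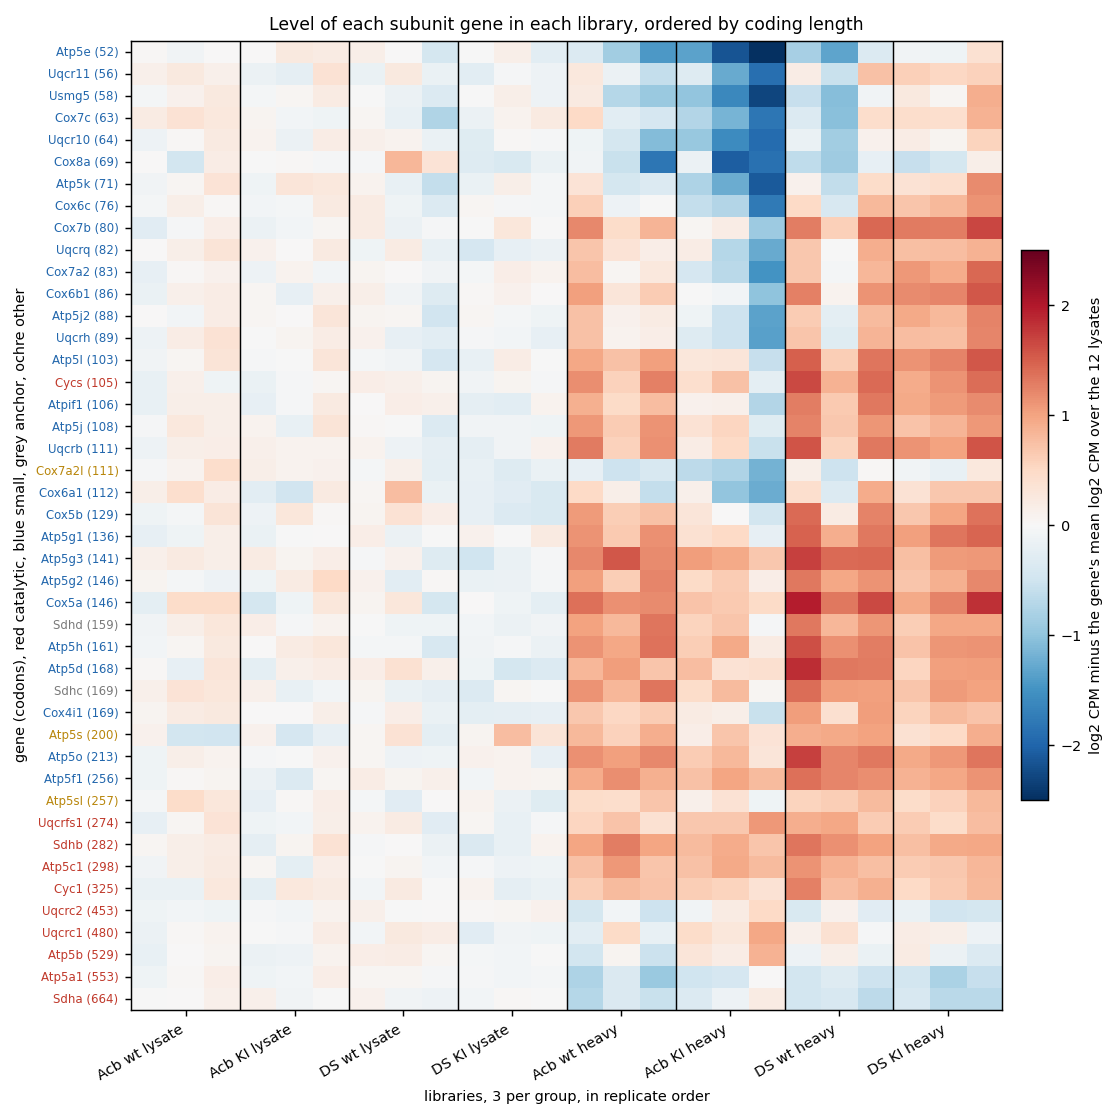
Level of the 44 members other than the tissue isoforms in each of the 24 libraries, as log2 CPM minus the gene's mean over the 12 lysates (colour scale, clipped at 2.5 log2 units either way). Genes run from the shortest coding sequence (Atp5e, 52 codons) at the top to the longest (Sdha, 664 codons) at the bottom; lysates are near 0 throughout, heavy fractions are high in the middle, and the rpS6P-/- Acb heavy libraries are lowest at the top.

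Wild-type heavy polysomal fractions were compared first with their lysates, to see how far each mRNA was found on heavy polysomes. This ratio does not give the number of ribosomes on an mRNA. In the Acb, 24 of the 50 members tested were higher in heavy polysomal fractions and 5 were lower (edgeR quasi-likelihood test, Benjamini-Hochberg adjusted p under 0.05 over all genes), where 13.0% and 12.9% of all genes tested were higher and lower. In the DS, 29 of 50 were higher and 4 lower, against 12.8% and 11.5% of all genes. The median log2 fold change of the members was 0.55 in the Acb and 0.81 in the DS, beside 0.03 and 0.00 over all genes. Small subunits had medians of 0.63 and 0.82, and catalytic genes 0.26 and 0.40. In the Acb the catalytic median was 0.0824 without replicate 2 and 0.45 without replicate 3, and the small median 0.35 without replicate 1.

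The subunits that rose most were those of middling size. Atp5g3, 1 of 3 genes for the same proton-carrying c subunit of ATP synthase, measured 337, 358 and 338 CPM in the wild-type Acb lysates and 709, 907 and 697 CPM in the heavy fractions. Every heavy library lay above every lysate, with a log2 fold change of 1.16 ± 0.14 (SE, adjusted p = 1.15e-06, edgeR, Benjamini-Hochberg). In the DS the lysates held 299.9, 329.6 and 245 CPM and the heavy fractions 998, 822 and 826 CPM, again without overlap (1.56 ± 0.15, adjusted p = 1.10e-08, edgeR). Its sisters Atp5g1 and Atp5g2 rose by 1.03 and 1.0 in the Acb and by 1.21 and 1.15 in the DS (adjusted p = 2.44e-05 or lower, edgeR). The 3 genes encode the same last 78 residues from coding sequences that are 77.2 to 84.8% identical over that stretch. Of the 50-base windows, 87.4% in Atp5g2 and 66.0% in Atp5g1 also occur in other genes, so reads of these sisters may be shared or lost. In Atp5g3 the share was 0.0%.

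The peripheral stalk, which holds the ATP synthase head still, rose whole. Its 4 genes, Atp5f1 (b), Atp5h (d), Atp5j (F6) and Atp5o (OSCP), were all higher in both regions. Atp5o went from 182, 217 and 209 CPM to 436, 399.6 and 454 CPM in the Acb (1.08 ± 0.14, adjusted p = 2.51e-06, edgeR). Cox5a, which binds on the matrix side of complex IV, showed the largest rise past the test in the DS, from 86.7, 101 and 61.4 CPM to 321, 206 and 261 CPM (1.62 ± 0.18, adjusted p = 1.51e-07, edgeR). No library overlapped between fractions for either gene.

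The catalytic class split. Sdhb, Uqcrfs1 (the Rieske iron-sulphur protein), Cyc1, Atp5c1 (gamma, the rotating shaft) and cytochrome c itself, Cycs, rose in both regions, by 0.47 to 1.07 in the Acb and by 0.79 to 1.19 in the DS (adjusted p = 0.0256 or lower, edgeR). The Acb call of Uqcrfs1 was lost without replicate 1 (adjusted p = 0.263, edgeR) or replicate 2 (0.183). Cycs shares 28.2% of its 50-base windows with 43 other genes. Sdha and Atp5a1 fell. Sdha measured 348, 351 and 382 CPM in the Acb lysates and 214, 272 and 237 CPM in the heavy fractions, a log2 fold change of -0.58 ± 0.14 with no overlap (adjusted p = 0.00243, edgeR). In the DS it stood at -0.51 (adjusted p = 0.00896, edgeR). Atp5a1 had log2 fold changes of -0.71 in the Acb and -0.48 in the DS (adjusted p = 0.000622 and 0.00702, edgeR). Sdha lost its Acb call without replicate 1 (adjusted p = 0.0543, edgeR), and both genes lost their DS calls without replicate 1 (0.115 for Sdha and 0.0824 for Atp5a1) or replicate 3 (0.0894 and 0.0707). Atp5b and the core proteins Uqcrc1 and Uqcrc2 passed the test in neither region, at -0.25, 0.06 and -0.23 in the Acb.

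Some of the smallest subunits fell as well. Atp5e measured 166, 153 and 164 CPM in the Acb lysates and 128, 88.8 and 60.0 CPM in the heavy fractions, all 3 below the lysates (-0.81 ± 0.19, adjusted p = 0.00168, edgeR). In the DS it measured 179, 164 and 119.8 CPM and 91.7, 65.0 and 128 CPM, ranges that overlap (-0.73 ± 0.19, adjusted p = 0.00523, edgeR). The DS call was lost without replicate 1 (adjusted p = 0.171, edgeR) or replicate 2 (0.0700). Uqcr10, which sits beside cytochrome c1, fell in the Acb, with a log2 fold change of -0.54 (adjusted p = 0.0299, edgeR), and Cox8a fell in the DS, with -0.99 (adjusted p = 0.000219, edgeR). Cox7a2l, a factor of the respiratory supercomplexes rather than a complex IV subunit, fell in the Acb, with -0.55 (adjusted p = 0.0067, edgeR). Without replicate 3 the calls of Cox7a2l (adjusted p = 0.156, edgeR) and Uqcr10 (0.508) were lost, and that of Uqcr10 also without replicate 2 (0.123).

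Set out by coding length, the members formed an arch in wild-type heavy fractions. The length bounds were chosen after the values were seen and carry no test, and tissue isoforms are left out. The 7 members with 50 to under 75 codons had a median log2 fold change of -0.48 in the Acb and -0.31 in the DS. The 15 with 75 to under 130 had 0.63 and 0.80, the 17 with 130 to under 350 0.95 and 1.15, and the 5 with 350 to under 700 (Uqcrc1, Uqcrc2, Atp5a1, Atp5b and Sdha) -0.25 and -0.25. All other genes tested in the same 4 length classes had medians of -0.26, 0.39, 0.46 and 0.03 in the Acb and of -0.13, 0.46, 0.50 and -0.00314 in the DS. The members therefore had the sign of other genes of their length in the 3 shorter classes and went further in the same direction in each, a difference that was not tested.

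**Figure D2:**
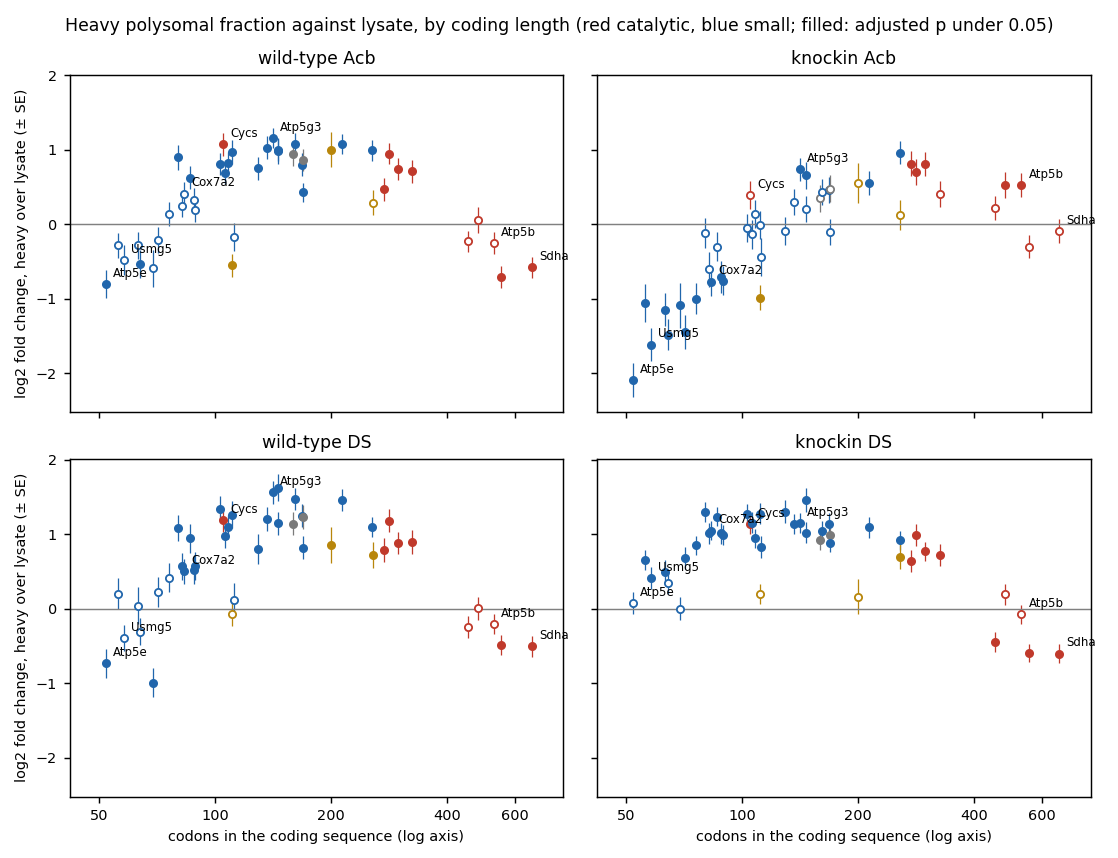
Log2 fold change of each member in heavy polysomal fractions over whole lysates (vertical axis, ± SE, 3 libraries per fraction) against the number of codons in its coding sequence (log axis), for each genotype and region. Red points are catalytic genes, blue small subunits, grey membrane anchors and ochre others; filled points have an adjusted p under 0.05. The wild-type panels and the rpS6P-/- DS panel show an arch that peaks at middling lengths, and in the rpS6P-/- Acb panel its left side falls to -2.09 at Atp5e.

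In rpS6P-/- mice the 2 regions parted. In the rpS6P-/- Acb, 9 of the 49 members tested were higher in heavy fractions and 13 lower (edgeR), against 7.70% and 9.50% of all genes. In the rpS6P-/- DS, 35 of 50 were higher and 3 lower, against 13.8% and 14.8% of all genes. The 29 small subunits had a median of -0.14 in the rpS6P-/- Acb, with 11 lower and 4 higher, and of 1.02 in the rpS6P-/- DS, with 26 of them higher. Catalytic genes had 0.47 in the Acb and 0.42 in the DS. Without replicate 3 of the rpS6P-/- Acb, 15 members were higher and 11 lower and the median of the small subunits was 0.0636. Without its replicate 2, 2 were higher and 10 lower with a small median of -0.34, and without its replicate 1, 3 and 14 with -0.38. Calls over all genes in either direction numbered 2425 of 15360, 1072 of 15056 and 1252 of 15319 in these 3 fits.

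Usmg5 shows the range. It measured 245, 264 and 292 CPM in the rpS6P-/- Acb lysates and 128, 83.7 and 52.0 CPM in the heavy fractions, far below every lysate (-1.62 ± 0.22, adjusted p = 9.03e-06, edgeR). In the rpS6P-/- DS it measured 251, 279.7 and 233 CPM and 301, 263 and 477 CPM, overlapping ranges with the heavy fractions higher (0.41 ± 0.15, adjusted p = 0.0279, edgeR). That call was lost without replicate 1 (adjusted p = 0.0645, edgeR) or replicate 3 (0.841). In wild-type mice its log2 fold change was -0.48 in the Acb and -0.39 in the DS, neither past the test. Atp5e fell in the rpS6P-/- Acb, with a log2 fold change of -2.09 (adjusted p = 3.08e-07, edgeR), and stood at 0.07 in the rpS6P-/- DS. The largest rises were those of Atp5f1, Uqcrfs1 and Atp5c1 in the rpS6P-/- Acb (0.96, 0.81 and 0.81) and of Cox5a, Cox5b and Cox7b in the rpS6P-/- DS (1.46, 1.31 and 1.30). Atp5c1 lost its Acb call without replicate 2 (adjusted p = 0.107, edgeR). Among long members Atp5b and Uqcrc1 were higher in heavy fractions in the rpS6P-/- Acb, both by 0.53 (adjusted p = 0.0264 and 0.038, edgeR), while Sdha, Atp5a1 and Uqcrc2 were lower in the rpS6P-/- DS, at -0.60, -0.59 and -0.45 (adjusted p = 0.00755 or lower, edgeR). In the Acb Uqcrc1 lost its call without any 1 of the 3 replicates (adjusted p = 0.166, 0.127 and 0.107, edgeR) and Atp5b without replicate 1 or 2 (0.142 and 0.0858). In the DS Uqcrc2 lost its call without replicate 2 or 3 (0.130 and 0.0861).

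The genotypes were then compared directly in Acb heavy fractions, where a loss of rpS6 phosphorylation could show in which mRNAs are on heavy polysomes. In the Acb, all 29 small subunits had lower counts in rpS6P-/- heavy fractions and the 5 members with the longest coding sequences had higher ones, but no member passed the adjusted test. The adjusted p was 0.0983 at its lowest, and 0.00% of the 16227 genes tested passed in edgeR. At an unadjusted p under 0.05, 33 of 49 members were lower and 5 higher, where 11.5% and 10.2% of all genes were lower and higher. Small subunits made up 25 of the 33, and the 5 were Atp5a1, Atp5b, Sdha, Uqcrc1 and Uqcrc2. DESeq2 put 23 members lower and 3 higher at an adjusted p under 0.05, among 1090 genes called of 16227, and edgeR with no filter on low counts called 23 members among 549 of 17896 genes, so the count of 0 depends on these choices. The median log2 fold change was -0.66 over the members, -0.85 over small subunits and 0.33 over catalytic genes, beside -0.01 over all genes. Without rpS6P-/- replicate 3, 29 members were lower and 2 higher at an unadjusted p under 0.05, with medians of -0.61 and 0.18 for the 2 classes. In that fit 0 of 16095 genes passed the adjusted test, and the share of all genes at the unadjusted level was not taken.

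Cox7a2, a membrane subunit of complex IV, had the lowest p. It measured 464, 279 and 325 CPM in wild-type and 201, 170.0 and 95.9 CPM in rpS6P-/- Acb heavy fractions. All 3 rpS6P-/- libraries lay below all 3 wild-type libraries, with replicate 3 lowest (-1.19 ± 0.24, unadjusted p = 0.00014, adjusted p = 0.0983, edgeR). In the lysates it measured 234, 278 and 290.2 CPM and 248, 286 and 257 CPM, a log2 fold change of -0.02 ± 0.12.

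Complex III held both directions. Uqcrh, the acidic hinge protein that helps cytochrome c1 meet cytochrome c, measured 568, 361 and 381 CPM in wild-type and 273, 236 and 132 CPM in rpS6P-/- heavy fractions, with no overlap (-1.02 ± 0.24, adjusted p = 0.0983, edgeR). Uqcrb, which helps form the ubiquinone site, measured 436, 265 and 388 CPM and 201, 248 and 121 CPM, also without overlap (-0.93 ± 0.23, adjusted p = 0.0989, edgeR). The core protein Uqcrc2 instead measured 176, 229 and 167 CPM in wild-type and 225, 275 and 339 CPM in rpS6P-/- mice, where wild-type replicate 2 reached into the rpS6P-/- range (0.55 ± 0.18, adjusted p = 0.123, edgeR). Uqcrc1 did likewise, with 119, 199 and 125 CPM against 194, 173 and 276 CPM (0.54 ± 0.21, adjusted p = 0.162, edgeR). These are the large matrix-facing core proteins of the complex. Uqcr11, of 56 codons, measured 168, 126 and 92.6 CPM and 111, 57.8 and 37.5 CPM, which overlap (-0.89 ± 0.30, adjusted p = 0.131, edgeR). The redox subunits stood between, Cyc1 with 132, 149 and 141 CPM against 131, 127 and 110.2 CPM (-0.19 ± 0.15) and Uqcrfs1 with 138, 155 and 124 CPM against 151, 150.5 and 202 CPM (0.27 ± 0.17). All 5 small complex III genes were lower at an unadjusted p under 0.05, and 2 of the 4 core and redox genes were higher.

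Complex IV moved one way. Its 16 genes tested, isoforms and Cox7a2l included, all had a log2 fold change below 0, with a median of -1.0, and 12 had an unadjusted p under 0.05. Cox6c measured 519, 314 and 339.8 CPM in wild-type and 227, 206 and 101 CPM in rpS6P-/- heavy fractions, with no overlap (-1.13 ± 0.26, adjusted p = 0.0983, edgeR). Cox7c measured 96.5, 57.3 and 51.4 CPM and 41.4, 30.6 and 19.7 CPM, also without overlap (-1.16 ± 0.26, adjusted p = 0.0983, edgeR). Cox4i1, the longest of the 10 subunits that are not tissue isoforms and the site where ATP slows the enzyme, differed less: 727, 655 and 711 CPM against 527, 509 and 311 CPM (-0.63 ± 0.19, adjusted p = 0.11, edgeR). Cox8a spread widest, with 118, 84.6 and 35.9 CPM and 114, 30.2 and 34.4 CPM, so its -0.42 ± 0.42 lay within the spread of the libraries. Cox6a2 measured 7.42, 6.41 and 3.38 CPM and 4.58, 1.7 and 1.51 CPM, overlapping (-1.16 ± 0.43, adjusted p = 0.148, edgeR).

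ATP synthase ran from one extreme to the other. The small membrane subunits Atp5k, Usmg5, Atp5j2 (f) and Atp5l (g), which lie where 2 synthases meet, were all lower at an unadjusted p under 0.05, with a median of -1.04. Usmg5 measured 298, 155 and 134 CPM in wild-type and 128, 83.7 and 52.0 CPM in rpS6P-/- heavy fractions, the highest rpS6P-/- library lying just under the lowest wild-type one (-1.15 ± 0.30, adjusted p = 0.104, edgeR). Atp5k measured 229, 133 and 141 CPM and 105, 75.8 and 41.8 CPM, with no overlap (-1.17 ± 0.27, adjusted p = 0.0983, edgeR). Atp5e, from the stalk, measured 128, 88.8 and 60.0 CPM and 64.8, 36.4 and 28.0 CPM, and replicate 1 of rpS6P-/- exceeded replicate 3 of wild-type (-1.09 ± 0.29, adjusted p = 0.105, edgeR). The inhibitor Atpif1, which blocks the enzyme from running backwards, measured 316, 239 and 292 CPM and 183, 185 and 103 CPM, with no overlap (-0.84 ± 0.21, adjusted p = 0.0987, edgeR).

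Parts of ATP synthase with longer coding sequences were lower by less, and the longest, Atp5a1 and Atp5b, were higher. Atp5g1 measured 349, 252 and 358 CPM in wild-type and 209, 227 and 139 CPM in rpS6P-/- heavy fractions, and Atp5g2 245, 185 and 282 CPM and 168, 187 and 136 CPM, where only the Atp5g2 ranges overlap. The c ring genes Atp5g1, Atp5g2 and Atp5g3 stood at -0.73, -0.53 and -0.42. Atp5g3 measured 709, 907 and 697 CPM in wild-type and 638, 595 and 489.9 CPM in rpS6P-/- heavy fractions, without overlap (-0.42 ± 0.16, adjusted p = 0.157, edgeR). The peripheral stalk ran from -0.72 for Atp5j through -0.54 for Atp5h and -0.53 for Atp5o to -0.15 for Atp5f1, the order of their coding lengths. Atp5c1, with 374, 475 and 359.8 CPM against 370.3, 434 and 385 CPM, had a difference within its error (-0.02 ± 0.16). Atp5b measured 687, 985 and 649 CPM in wild-type and 1167, 1069 and 1726 CPM in rpS6P-/- mice, all 3 higher (0.77 ± 0.19, adjusted p = 0.0992, edgeR). Atp5a1 measured 464, 617 and 416 CPM and 566, 592 and 803 CPM, with wild-type replicate 2 inside the rpS6P-/- range (0.39 ± 0.18, adjusted p = 0.218, edgeR).

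Complex II and cytochrome c completed the picture. Sdha measured 214, 272 and 237 CPM in wild-type and 278, 319.8 and 404 CPM in rpS6P-/- Acb heavy fractions, without overlap (0.47 ± 0.17, adjusted p = 0.138, edgeR). Its partner Sdhb measured 222, 271 and 222 CPM and 193, 214 and 182 CPM (-0.28 ± 0.16). The anchors Sdhc and Sdhd, which hold the enzyme in the membrane, stood at -0.65 ± 0.19 and -0.62 ± 0.20. Cycs, a catalytic-class gene with only 105 codons, measured 735, 492 and 788 CPM and 442, 548 and 279.9 CPM, overlapping, and was lower (-0.66 ± 0.22, unadjusted p = 0.00804, adjusted p = 0.129, edgeR). Its value lay among those of the small subunits of like length.

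**Figure D3:**
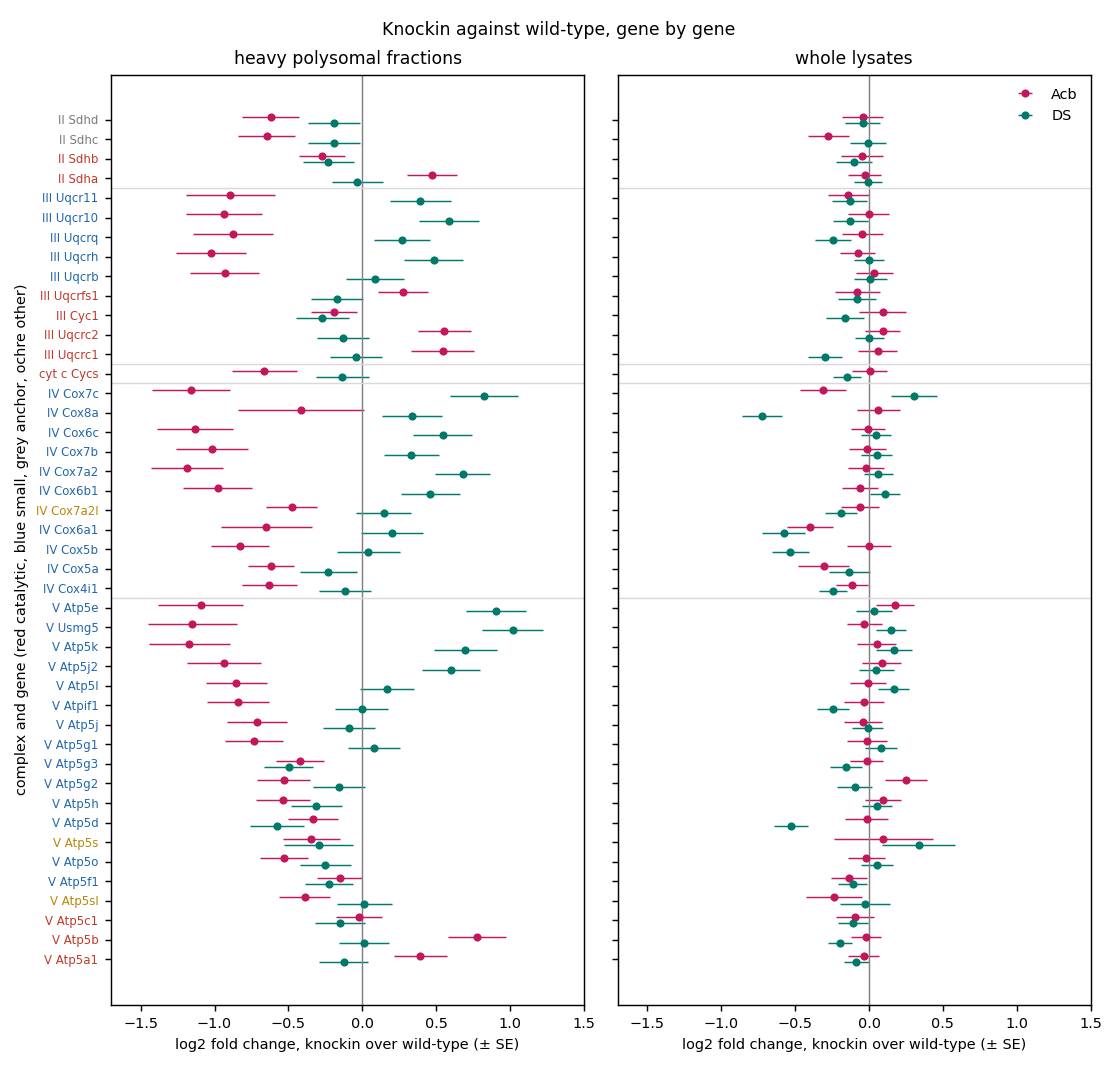
Log2 fold change of rpS6P-/- over wild-type for each member other than the tissue isoforms (horizontal axis, ± SE, 3 libraries per genotype), in heavy polysomal fractions (left) and whole lysates (right), for the Acb (magenta) and the DS (green). Genes are grouped by complex and ordered by coding length within it, shortest at the top; in heavy fractions the regions part at the short genes, with Usmg5 at -1.15 in the Acb and 1.02 in the DS, while in lysates most lie near 0.

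In whole lysates of the Acb the members lay near 0. No member of 50 tested passed the adjusted test (0.00650% of all genes, 1 gene, did; DESeq2 also called 0 members), and 2 were lower at an unadjusted p under 0.05, Cox6a1 and Cox7c, where 1.69% and 1.27% of all genes were lower and higher. The median log2 fold change was -0.02 over the members, over 29 small subunits -0.02 and over 10 catalytic genes -0.03. Apart from the isoforms the members lay between -0.40 and 0.25, with a median SE of 0.13. Cox7c measured 78.9, 88.4 and 82.1 CPM in wild-type and 71.8, 65.3 and 63.8 CPM in rpS6P-/- lysates (-0.31 ± 0.15, adjusted p = 1, edgeR).

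Translational efficiency, the heavy over lysate difference between genotypes, was tested as an interaction. In the Acb, none of 50 members passed the adjusted test without pairing, nor did any gene (0.00%; DESeq2 also 0). At an unadjusted p under 0.05, 26 members were lower in rpS6P-/- mice and 3 higher, against 6.16% and 5.78% of all genes. The heavy and lysate libraries of one number come from the same lysate. With that pairing in the model, 15 members were lower and 1 higher at an adjusted p under 0.05, among 0.635% of all genes called (106 of 16687). The 15 were Atp5e, Atp5j2, Atp5k, Atp5l, Atpif1, Cox5b, Cox6b1, Cox6c, Cox7a2, Cox7b, Uqcr10, Uqcrb, Uqcrh, Uqcrq and Usmg5, none longer than 129 codons, and the 1 was Atp5b. Atp5e had the largest paired difference, -1.30 ± 0.24 (SE, adjusted p = 1.46e-04, edgeR with the replicate block), and Atp5b stood at 0.79 ± 0.20 (adjusted p = 0.0279, edgeR with the replicate block). The unpaired medians were -0.65 over the members, -0.84 over small subunits and 0.39 over catalytic genes. In the unpaired model, leaving out rpS6P-/- replicate 3 moved the median over the members to -0.37 and over small subunits to -0.51, leaving out wild-type replicate 3 moved that over catalytic genes to 0.18, and leaving out rpS6P-/- replicate 1 raised the members called from 0 to 8, among 41 of 16530 genes. The paired model was not run with libraries left out. Deviations of paired libraries correlated only from -0.0376 to 0.0743. The unpaired model with no filter on low counts also called 16 members, among 107 of 18207 genes. A block on replicate number likewise gave 14 members in the Acb heavy genotype comparison, among 98 of 16227 genes. What moved these counts was not tested.

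The DS heavy fractions went the other way for the shortest genes. In the DS, 1 of the 50 members tested passed, Usmg5, higher in rpS6P-/- mice, where 0.0440% of all genes (7) passed. It measured 170.3, 122 and 238 CPM in wild-type and 301, 263 and 477 CPM in rpS6P-/- heavy fractions. All 3 rpS6P-/- libraries were higher (1.02 ± 0.21, adjusted p = 0.0382, edgeR). The call was lost without wild-type replicate 1 (adjusted p = 0.230, edgeR) and without any 1 of the 3 rpS6P-/- libraries (0.0548 to 0.391), and 40.6% of the 50-base windows of Usmg5 occur in 4 other genes. At an unadjusted p under 0.05, 10 members were higher, all small subunits, and 2 lower, Atp5d and Atp5g3, against 3.70% and 2.72% of all genes. The median was 0.20 over small subunits, -0.13 over catalytic genes and 0.00 over the members. Atp5e measured 91.7, 65.0 and 128 CPM in wild-type and 154, 151 and 212 CPM in rpS6P-/- DS heavy fractions, without overlap (0.90 ± 0.20, adjusted p = 0.069, edgeR). Atp5b, in contrast, measured 860.4, 1047 and 845 CPM and 1084, 851 and 741 CPM (0.01 ± 0.17). Without wild-type replicate 3, 3 members were called, among 29 of 15614 genes, and the small median was 0.48. Without wild-type replicate 2 the small subunits had a median of -0.06 in place of 0.20, so the sign of that median rests on this library.

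In DS lysates 2 of 49 members passed, both lower in rpS6P-/- mice, where 0.122% of all genes passed. Cox8a measured 122, 222 and 159 CPM in wild-type and 99.9, 95.4 and 112 CPM in rpS6P-/- lysates, with no overlap and wild-type replicate 2 highest (-0.73 ± 0.13, adjusted p = 0.00596, edgeR). Without that library it stood at -0.46 (adjusted p = 0.399, edgeR), and without rpS6P-/- replicate 1 or 2 the adjusted p was 0.156 and 0.295. Atp5d, the delta subunit of the stalk, measured 148, 172 and 144 CPM and 122, 97.9 and 104 CPM, also without overlap (-0.53 ± 0.12, adjusted p = 0.0437, edgeR), and lost its call without any of 4 libraries. At an unadjusted p under 0.05, 8 members were lower and 1 higher, the sparsely counted isoform Cox7a1, against 4.83% and 4.24% of all genes. Translational efficiency in the DS gave 0 of 50 members called (0.00% of all genes; DESeq2 0), with 9 higher and 1 lower at an unadjusted p under 0.05 against 2.73% and 2.18% of all genes. With the lysate pairing, 1 member was called, Cox8a, at 0.99 ± 0.23 (adjusted p = 0.0424, edgeR with the replicate block), among 0.0363% of all genes. Without wild-type replicate 3, 4 members were called in the unpaired model, among 17 of 16321 genes.

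The difference between the regions in the genotype effect was tested directly on heavy fractions. No member of 50 passed the adjusted test in edgeR, where 0.00592% of all genes (1 gene) did; DESeq2 called 6, all lower, among 236 genes. At an unadjusted p under 0.05, 20 members had a lower genotype effect in the Acb than in the DS and 5 a higher one, against 7.49% and 6.33% of all genes. The 20 held 19 small subunits and Cox7a2l, and the 5 were Atp5a1, Atp5b, Sdha, Uqcrc1 and Uqcrc2. Usmg5 had the largest difference among members other than isoforms, -2.15 ± 0.42 log2 units (unadjusted p = 2.42e-05, adjusted p = 0.0518, edgeR), followed by Atp5e at -1.98 ± 0.39 and Cox7c at -1.97 ± 0.41. The medians were -1.0 over small subunits and 0.49 over catalytic genes. Leaving out rpS6P-/- Acb replicate 1 raised the count from 0 to 14 (183 of 16824 genes) and leaving out wild-type Acb replicate 2, wild-type Acb replicate 3 or wild-type DS replicate 3 raised it to 10, 7 and 10 (94, 58 and 160 of all genes), while it stayed at 0 without rpS6P-/- Acb replicate 3, where the medians were -0.75 and 0.34.

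**Figure D4:**
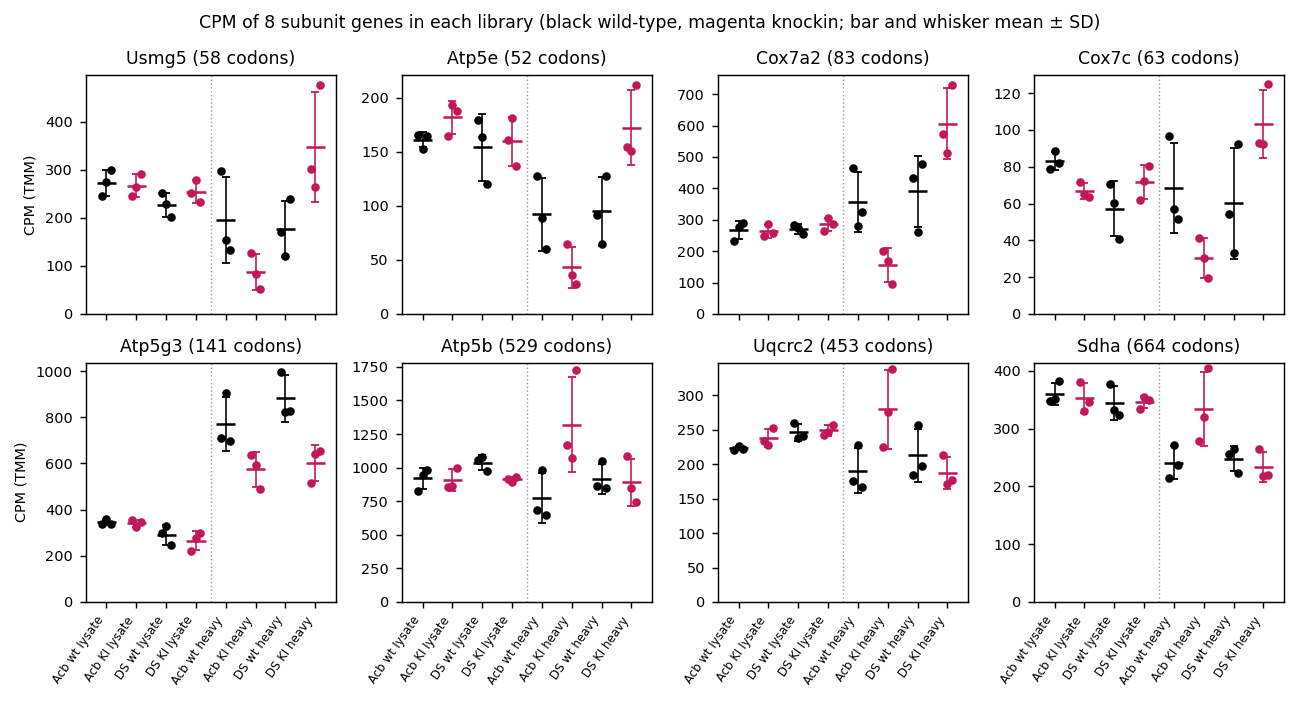
CPM of 8 members in each library (points; bar and whisker, mean ± SD of 3) in the 8 groups, lysates left of the dotted line and heavy fractions right of it, wild-type in black and rpS6P-/- in magenta. The short genes Usmg5, Atp5e, Cox7a2 and Cox7c are lowest in rpS6P-/- Acb heavy fractions and highest among heavy fractions in the rpS6P-/- DS; the long genes Atp5b, Uqcrc2 and Sdha are highest among heavy fractions in the rpS6P-/- Acb.

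The 2 regions were also compared within each genotype. In wild-type heavy fractions 1 of 49 members differed, Atp5d, lower in the Acb, against 3.43% of all genes lower and 4.72% higher. It measured 236, 271 and 212 CPM in the Acb and 477, 330.3 and 324 CPM in the DS, without overlap (-0.60 ± 0.17, adjusted p = 0.0423, edgeR), and the call was lost without any 1 of 5 of the 6 libraries. In rpS6P-/- heavy fractions 26 of 50 were lower in the Acb and 2 higher, against 10.7% and 7.89% of all genes. Of the 29 small subunits 23 were lower, with a median of -1.19, and the other 3 were Cycs, Cox6a2 and Cox7a2l. Without rpS6P-/- Acb replicate 3, 23 members were lower, among 2094 of 15984 genes called in either direction. Uqcrc2 and Atp5b, the 2 higher ones, then lost their calls, as they did without DS replicate 2 or 3. Uqcrc2 lost its call also without Acb replicate 2 (adjusted p = 0.0709, edgeR). Cox6a2 lost its call without any 1 of 5 of the 6 libraries, and Cycs without DS replicate 3 (0.0610).

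Cox7a2 measured 201, 170.0 and 95.9 CPM in the rpS6P-/- Acb and 574, 513 and 731 CPM in the rpS6P-/- DS heavy fractions, far apart (-1.96 ± 0.23, adjusted p = 8.25e-06, edgeR). Atp5e differed by -2.0 ± 0.25 (adjusted p = 1.73e-05, edgeR), and Usmg5 and Atp5k by -1.98 and -1.98. Higher in the Acb were Uqcrc2 (0.57 ± 0.18, adjusted p = 0.0314, edgeR) and Atp5b (0.55 ± 0.19, adjusted p = 0.0443, edgeR). The wild-type values for Cox7a2, Atp5e, Uqcrc2 and Atp5b were -0.08, 0.01, -0.10 and -0.19.

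Lysates of the 2 regions differed little in these genes. In wild-type lysates 2 of 50 members passed, against 6.15% of all genes lower in the Acb and 6.54% higher. Cox7c was higher in the Acb, 78.9, 88.4 and 82.1 CPM against 70.5, 60.2 and 40.8 CPM (0.53 ± 0.16, adjusted p = 0.0215, edgeR), and Cox8a lower, 126, 90.8 and 143 CPM against 122, 222 and 159 CPM with overlap (-0.49 ± 0.16, adjusted p = 0.0302, edgeR). In rpS6P-/- lysates 3 of 49 passed, all higher in the Acb: Atp5g3 (0.36), Cox7a2l (0.33) and Cox4i1 (0.28, adjusted p = 0.0236 to 0.0452, edgeR), against 6.03% of all genes lower and 4.84% higher. Each of these 5 calls was lost when some single library was left out. In bulk tissue fewer cells of a type and less mRNA per cell cannot be told apart.

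Coding length ordered the genotype effect in heavy fractions. Across the 44 members other than the isoforms, Spearman's rho between log2 fold change and codons was 0.89 in the Acb and -0.75 in the DS, and -0.07 and -0.25 in the lysates. These are descriptions across genes that share libraries. In the Acb the 7 members in the shortest class had a median of -1.09, the 15 in the next -0.88, the 17 in the third -0.42 and the 5 longest 0.54. All other genes tested had medians of -0.73, -0.64, -0.27 and 0.11 in these classes. In the DS the members had 0.70, 0.20, -0.22 and -0.04 and all other genes 0.51, 0.21, -0.01 and 0.02. The sign of the median was thus shared with all other genes of like coding length in each class of the Acb, and in each of the DS but the longest.

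Library by library, the members were set beside the slope of other genes on coding length. In each library the level of 11614 other genes, relative to their mean over lysates, was regressed on log2 coding length. The slope lay between -0.086 and 0.059 in lysates. In heavy fractions it was -0.383, -0.300 and -0.312 in wild-type Acb, -0.226, -0.180 and -0.0153 in rpS6P-/- Acb, -0.451, -0.257 and -0.388 in wild-type DS and -0.278, -0.347 and -0.452 in rpS6P-/- DS. The median of small subunits minus that of catalytic genes was 0.697, -0.0824 and 0.540 in wild-type Acb, -0.312, -0.418 and -1.52 in rpS6P-/- Acb, 0.737, -0.380 and 0.800 in wild-type DS and 0.362, 0.584 and 0.812 in rpS6P-/- DS, in the same order of replicates. In the rpS6P-/- Acb heavy libraries and wild-type replicate 2 of each region, shorter other genes were higher, yet small subunits lay below catalytic genes. The library with the shallowest slope, rpS6P-/- Acb replicate 3, had the lowest small subunits, and within each wild-type group the library with the shallowest slope, replicate 2, did too. The part of this slope in the members' differences was not tested beyond 1 refit, with the trend of all genes on transcript length removed. There the Acb genotype median was -0.24 over small subunits in place of -0.85, and 0.40 over catalytic genes. At an unadjusted p under 0.05, 15 members were lower and 6 higher, and the share of all genes was not taken. No member passed the adjusted test in this refit, where 1 of 16227 genes did.

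**Figure D5:**
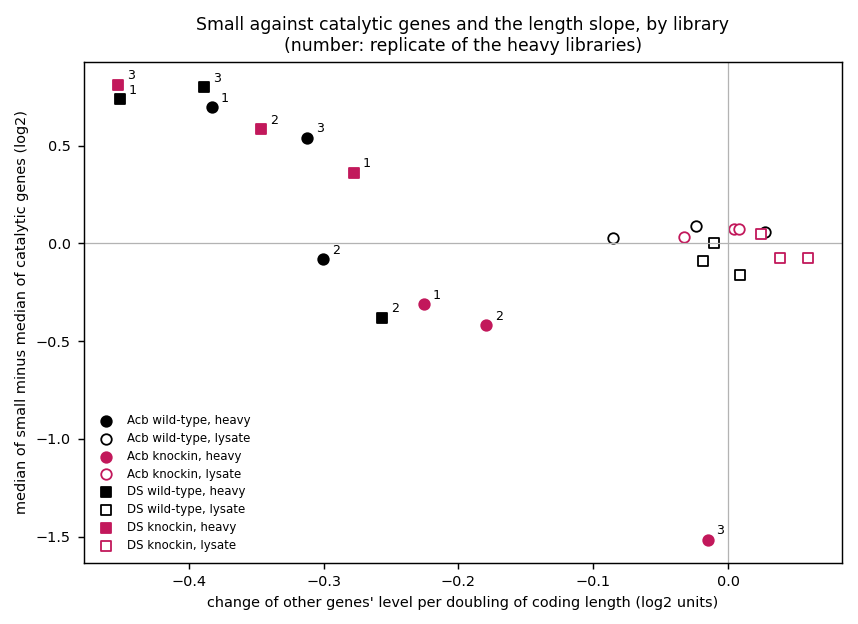
Median log2 level of the 29 small subunits minus that of the 10 catalytic genes (vertical axis) against the slope of 11614 other genes on log2 coding length (horizontal axis), for the 24 libraries; circles are Acb, squares DS, magenta rpS6P-/-, open symbols lysates, and numbers give the replicate of heavy libraries. Heavy libraries run from upper left (rpS6P-/- DS replicate 3, -0.452 and 0.812) to lower right (rpS6P-/- Acb replicate 3, -0.0153 and -1.52), while lysates lie near 0 on both axes.

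Related genes from lists named alongside the members moved as follows. Complex I subunits, which feed electrons from NADH into the same chain and are likewise mostly small, had 37 of 38 tested. In wild-type heavy fractions 22 were higher and 3 lower than in lysates in the Acb and 27 and 1 in the DS; in rpS6P-/- mice these counts were 10 and 8 in the Acb and 30 and 1 in the DS (edgeR, adjusted p under 0.05), beside the shares of all genes given above for the members. In the Acb heavy genotype comparison 29 were lower and 2 higher at an unadjusted p under 0.05, with a median of -0.71. In that comparison 11.5% of all genes were lower and 10.2% higher. Assembly factors of complexes II to V, proteins that build the complexes without staying in them, had 30 of 31 tested and a median of -0.32 there, with 9 lower and 2 higher. They were 4 higher and 3 lower in wild-type Acb heavy fractions against lysates and 3 and 3 in the DS, where 13.0% and 12.9% and 12.8% and 11.5% of all genes were higher and lower.

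Sequence shared with other genes limits some of these values. Besides Atp5g1, Atp5g2, Usmg5 and Cycs, windows of 50 bases found in other genes made up 68.5% of Atp5l, 53.0% of Cox7c, 50.5% of Atp5h, 43.2% of Uqcrb and 35.5% of Atp5o, and how reads with several matches were counted is not given in the sources used here. Of the members named above, Atp5e, Cox7a2, Cox8a, Cox4i1, Uqcrc1, Uqcrc2, Sdha and Atp5a1 shared none.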

How the data were processed

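The 24 libraries are poly-A selected, strand-specific RNAseq of whole lysates and heavy polysomal fractions. Per the labels and the study's methods, the authors aligned reads with TopHat2 2.0.13 and Bowtie2 2.2.3 to mm10, and deposited raw counts per gene from HTSeq 0.6.1p1 in union mode; no normalised values were used here. Groups and replicate numbers came from the sample titles.

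Counts were tested with edgeR 4.0.16 (R 4.3.3), quasi-likelihood F test with TMM scaling, on genes with at least 15 reads over the libraries of a comparison, separately for each of 15 comparisons. P-values were adjusted by Benjamini-Hochberg over all genes tested, with a threshold of 0.05, and errors are SEs of log2 fold changes. Printed CPM use TMM factors over all 24 libraries. Depth was 9280589 to 34703044 assigned reads. Replicates of a group differed by 14.6 to 75.4 in chi-square per gene, so no library was counted as a duplicate. Scripts were tested on simulated data.

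All members enter the counts. Values per library are given for the catalytic genes, for a set list of small subunits, and for members with the largest changes past the threshold. Members, classes and lists were chosen with earlier results of these data known. Transcripts and coding lengths came from GENCODE M21 and gene positions from RefSeq, both on GRCm38.

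Heavy and lysate libraries of the same number come from the same lysate and so are paired, although their deviations correlated only from -0.0376 to 0.0743. Alternatives were DESeq2 size factors, DESeq2 1.42.0 Wald tests, other filters on low counts, a replicate block, removal of the trend on transcript length, and leaving out each library or pair.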

Additional observations from a re-analysis of the deposited data

Results flagged for a closer look

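Usmg5, Cox7a2 and Atp5j2 stood out because every rpS6P-/- heavy library lay below every wild-type one in the Acb and above every wild-type one in the DS. The genotype effect of Usmg5 was -1.15 in the Acb and 1.02 in the DS on the log2 scale, a difference of -2.15 ± 0.42 (SE; adjusted p = 0.0518, edgeR interaction, Benjamini-Hochberg). For Cox7a2 it was -1.19 and 0.68, a difference of -1.85 ± 0.34 (adjusted p = 0.0518, edgeR). For Atp5j2 it was -0.94 and 0.60, a difference of -1.52 ± 0.36 (adjusted p = 0.0707, edgeR). None passed the adjusted threshold in edgeR. The genes were picked on these same values, so the interaction p-values add no separate support. How many of all genes met the same rule was not counted. Other genes of 50 to under 75 codons, the class of Usmg5, had median genotype effects of -0.73 in the Acb and 0.51 in the DS. Those of 75 to under 130 codons, the class of Cox7a2 and Atp5j2, had -0.64 and 0.21.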

How the results depend on the processing

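With no filter on low counts the members called numbered 23 in the Acb heavy genotype comparison, 4 in DS heavy fractions, 4 in DS lysates, 16 and 1 for translational efficiency in the Acb and DS, and 15 for genotype by region, among 549, 37, 66, 107, 5 and 353 of all genes. The stricter filterByExpr filter gave 0 in DS heavy fractions, 0 in DS lysates and 1 between wild-type lysates, among 1, 2 and 1922 of all genes. DESeq2 gave 26 in the Acb heavy comparison, 2 in DS heavy fractions, 6 for genotype by region, 1 between wild-type lysates and 6 between rpS6P-/- lysates, among 1090, 17, 236, 2079 and 1876 of all genes. The cause of these shifts was not tested.

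With the trend on transcript length removed, the median over the members was -0.22 in the Acb heavy genotype comparison, -0.36 for Acb translational efficiency, -0.17 for genotype by region, 0.19, 0.43 and 0.35 for heavy fractions against lysates in wild-type Acb, wild-type DS and rpS6P-/- DS, -0.51 between rpS6P-/- heavy fractions, and -0.0762 and -0.0108 between wild-type and rpS6P-/- lysates. The members called were then 0 in DS heavy fractions, 1 in DS lysates, 3 for genotype by region, 1 between wild-type lysates and 0 between rpS6P-/- lysates. Over all genes the calls numbered 4, 6, 28, 2039 and 1477 in the same order. This setting turned the sign of 4 named values: Atp5g3 in the Acb heavy comparison (0.0789), Cox7a2 in wild-type DS fractions (-0.0226), and Cox7c (-0.18) and Usmg5 (-0.25) in rpS6P-/- DS fractions.

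Pairing of lysates with a replicate block gave 16 and 1 members for translational efficiency in the Acb and DS and changed no other count of fraction calls by over 1.5 times. Between genotypes and regions the labels give the replicates only a number in common, with correlations from -0.295 to 0.320 and from -0.256 to 0.217. Whether Acb and DS libraries of the same number came from the same mice is not given in the sources used here. In these comparisons the replicate block gave 14 in the Acb heavy comparison, 3 in DS heavy fractions, 4 in DS lysates and 13 for genotype by region. Over all genes the calls numbered 98, 31, 71 and 258.

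Leaving out 1 library or pair moved the members called over 0 to 3 in DS heavy fractions, 0 to 4 in DS lysates, 0 to 8 and 0 to 4 for translational efficiency in the Acb and DS, 0 to 14 for genotype by region, 12 to 26 for rpS6P-/- Acb fractions, and 0 to 1, 0 to 3 and 0 to 5 between wild-type heavy fractions, wild-type lysates and rpS6P-/- lysates. Medians ranged from -0.80 to -0.37 for Acb translational efficiency, -0.84 to -0.42 for genotype by region, 0.49 to 0.71, -0.24 to 0.22 and 0.70 to 1.06 for wild-type Acb, rpS6P-/- Acb and wild-type DS fractions, and -0.33 to -0.0732 between wild-type heavy fractions. Of the values of single named genes, 1714 kept direction and side of the threshold, 115 passed it anew and 135 lost it. With 3 pools a group, differences of several SEs could miss the adjusted threshold, as that of Cox7a2 in Acb heavy fractions did (-1.19 ± 0.24).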
